A study of Homo sapiens with 16 samples.

Results

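Promoter nucleosomes of GM12878 cells were compared after 40 min and after 20 min of stimulation with heat-killed Salmonella typhimurium (HKST). The promoters were taken as all TSSs with complete values in the light and heavy MNase tables of both time points, which left 2801 of 21857 promoters (12.8%), all on chromosomes 1, 10 and 11 (1732, 637 and 432 promoters). GM12878 is an established human B cell line immortalized with Epstein-Barr virus, and the cells of both time points had received HKST before they were cross-linked in formaldehyde. Chromatin was digested with 20 U (light) or 200 U (heavy) of MNase, promoter fragments were enriched by solution capture, and each of the 4 tables pools 2 replicates. Untreated cells and cells at 60 min of HKST were digested and pooled likewise, and their values are given only as a frame for those of 40 and 20 min. Fragments alone were sequenced, so the identity of the cells could not be checked against expressed markers.

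MNase cuts linker DNA first and then trims the DNA of the nucleosome itself. At an active promoter, well positioned nucleosomes called -1 and +1 flank a nucleosome-free region (NFR) just upstream of the TSS. A nucleosome that is released by light digestion and lost in heavy digestion is called sensitive, and one that is recovered mainly in heavy digestion is called resistant. Sensitivity was calculated here as log2 of light over heavy signal, so that a positive value marks a sensitive nucleosome.

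The 5 sequences below are shown because they lie in the window from -200 to 0 bp in which sensitivity was compared. They are the upstream 200 bp of the promoters with the largest rises (FSHB and FAM129A) and the largest falls (KIAA0040 and CDC14A) in sensitivity at 40 min relative to 20 min, and of ISG15, an interferon-stimulated gene added after its values were seen. In GRCh37 (hg19) they span chr11:30252363-30252562 (FSHB, plus strand), chr1:184943719-184943918 (FAM129A, minus strand), chr1:175161950-175162149 (KIAA0040, minus strand), chr1:100817823-100818022 (CDC14A, plus strand) and chr1:948647-948846 (ISG15, plus strand). All 5 lie upstream of the deposited TSS and are written 5′ to 3′ on the strand of the gene, and capitals mark matches to the motifs named in the next paragraph.
FSHB: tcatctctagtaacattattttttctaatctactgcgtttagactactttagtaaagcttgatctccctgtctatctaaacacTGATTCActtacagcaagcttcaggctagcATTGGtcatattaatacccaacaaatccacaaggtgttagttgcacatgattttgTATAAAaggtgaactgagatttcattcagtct
FAM129A: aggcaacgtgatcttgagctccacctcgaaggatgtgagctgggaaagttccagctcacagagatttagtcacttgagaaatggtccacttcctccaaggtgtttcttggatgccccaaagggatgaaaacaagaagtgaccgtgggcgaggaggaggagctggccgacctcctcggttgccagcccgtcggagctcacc
KIAA0040: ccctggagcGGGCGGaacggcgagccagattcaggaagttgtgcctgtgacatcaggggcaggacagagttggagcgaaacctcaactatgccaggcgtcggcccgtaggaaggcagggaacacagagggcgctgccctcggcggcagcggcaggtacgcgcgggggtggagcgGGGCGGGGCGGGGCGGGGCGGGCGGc
CDC14A: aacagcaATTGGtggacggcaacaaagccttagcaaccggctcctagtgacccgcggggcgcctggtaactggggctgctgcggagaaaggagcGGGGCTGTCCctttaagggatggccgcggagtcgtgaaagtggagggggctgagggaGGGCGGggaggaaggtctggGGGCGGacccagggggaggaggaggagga
ISG15: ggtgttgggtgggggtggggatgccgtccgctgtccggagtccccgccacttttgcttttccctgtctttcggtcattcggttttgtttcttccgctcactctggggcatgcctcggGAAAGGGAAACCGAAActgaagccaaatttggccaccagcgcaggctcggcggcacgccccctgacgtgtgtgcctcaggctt

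The motifs searched on both strands were an NF-kB motif (GGG, any 2 bases, T, any 2 bases, CC, in 19.6% of the 2801 upstream windows), an ETS motif (CCGGAAG, 7.43%), a GC box (GGGCGG, 48.1%), a CCAAT box (CCAAT, 29.5%), a TATA box (TATAAA, 8.32%), an AP-1 motif (TGANTCA, 4.93%), a CRE (TGACGTCA, 1.5%), an NRF1 motif (GCGCA joined to TGCGC, 0.857%) and, added after the values were seen, an ISRE, the interferon-stimulated response element (GAAA, any 2 bases, GAAA, 2.07%). The FSHB window is AT-rich (GC content 35%) and has a TATA box at -32 to -27 bp, an AP-1 match at -117 to -111 bp and a CCAAT box on the other strand. FAM129A has none of the 9 motifs. KIAA0040 has 6 GC boxes, 5 of which overlap or abut within the last 26 bp before the TSS, in a window of 71.5% GC. CDC14A has an NF-kB match at -106 to -97 bp, 2 GC boxes and a CCAAT box on the other strand. ISG15 has 2 overlapping ISRE matches, at -83 to -74 bp and at -77 to -68 bp. A match describes letters and does not show that a factor was bound.

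At 40 min the light table held 9.43 M fragments and the heavy one 3.27 M, against 10.5 M light and 4.12 M heavy at 20 min. The median promoter had 16 light and 4 heavy fragments between -200 and 0 bp at 40 min, against 18 light and 5 heavy fragments at 20 min, and 198 promoters had no fragment there at either time. Replicates were pooled, so no spread between replicates could be measured and no p-value was calculated across promoters. All intervals are 95% intervals that cover counting error only, since PCR reads are not independent molecules, and time of stimulation cannot be told apart from how far each tube was digested. Over the shared promoters the light tables differed by -0.02 on the log2 scale and the heavy tables by 0.02 (40 min over 20 min), which puts sensitivity 0.05 lower at 40 min before any single nucleosome is considered.

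Average occupancy had the same shape at both times. In the profile of light plus heavy fragments, the -1 peak lay at -210 bp and the +1 peak at 150 bp at both 40 and 20 min, with the minimum of the NFR at -80 bp. The +2 peak lay at 360 bp at 40 min and at 370 bp at 20 min, and the +3 peak at 590 bp and 600 bp, each a shift of 1 step of the deposited values.

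The tables differed most at the +1 nucleosome of the heavy digest. Mean heavy signal over 80 to 220 bp (rpm, fragment centers per 60 bp window after division by the depth of each table) was 1.14 rpm at 40 min and 1.06 rpm at 20 min, and the summed fragments were higher at 40 min by 0.11 on the log2 scale (0.08 to 0.13). In untreated cells this heavy signal was 1.15 rpm, and it was 1.07 rpm at 60 min, so the values of 40 min and untreated cells lay together, as did those of 60 and 20 min. Light signal over the same window was 1.06 rpm at 40 min and 1.03 rpm at 20 min, a difference of 0.04 (0.03 to 0.06). Light plus heavy occupancy of the +1 nucleosome was higher at 40 min at 1468 promoters and lower at 1094, with a median log2 ratio of 0.03. Upstream, at the -3 nucleosome, it was higher at 1018 promoters and lower at 1376, with a median of -0.06.

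**Figure D1:**
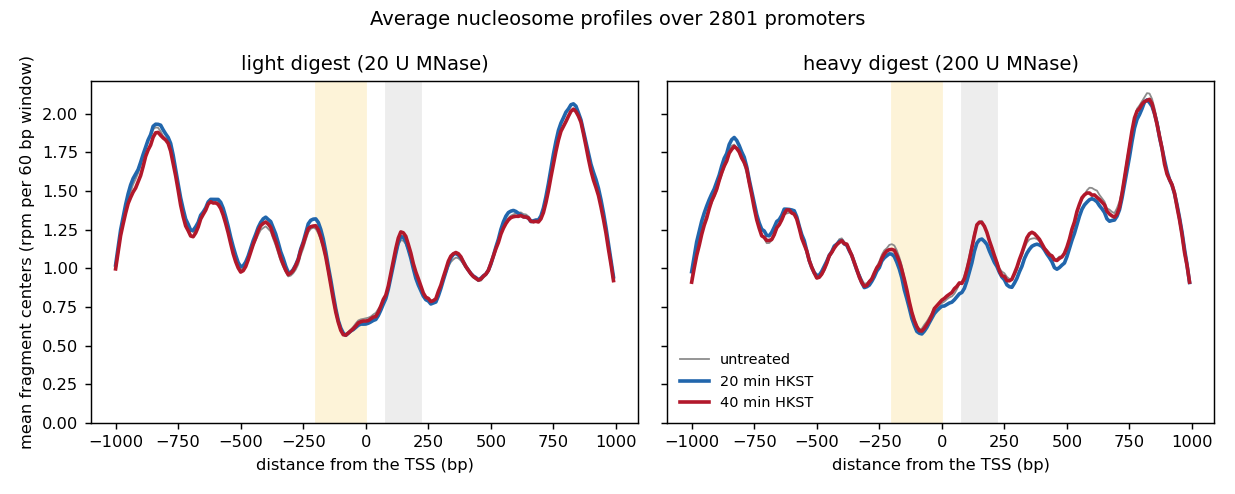
Mean fragment centers (rpm per 60 bp window) by distance from the TSS in light (left) and heavy (right) digests of untreated cells and at 20 and 40 min of HKST, averaged over 2801 promoters. The -200 to 0 bp and the +1 windows are shaded, and the heavy curve of 40 min lies above that of 20 min at the +1 peak (mean over the window 1.14 rpm at 40 min and 1.06 rpm at 20 min).

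By position, the heavy digest was higher at 40 min than at 20 min at all 30 positions between -300 and 0 bp and at all 70 positions between 0 and 700 bp, and the log2 ratio was highest, 0.13, at 140 bp. The light digest was lower at 40 min at 148 of 200 positions. The ratio of the average light to the average heavy profile was accordingly lower at 40 min at 178 of 200 positions, with its lowest difference, -0.14, at -140 bp, on the TSS-facing side of the -1 nucleosome. The mean of the single-promoter log2 ratios was higher at 40 min at 140 of 200 positions. That mean gives every promoter equal weight and takes logs of single bins with a pseudocount, and 30% of heavy values were 0 at 40 min, against 26.2% at 20 min. Which of these turned the sign was not tested.

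Sensitivity just upstream of the TSS was close to equal at both times. Between -200 and 0 bp the median of 2776 measured promoters was 0.08 at 40 min and 0.16 at 20 min (untreated 0.05, and 0.10 at 60 min). The median change of single promoters was -0.01, with quartiles of -0.52 and 0.39, and 1221 promoters were higher at 40 min, 1402 lower and 153 equal. The change of the summed fragments was -0.09 (-0.12 to -0.06). It was alike on chromosome 1 (-0.09), chromosome 10 (-0.10) and chromosome 11 (-0.07). Of the promoters measured, 7.53% were higher at 40 min by 2-fold or more and 9.55% were lower by as much (209 and 265 promoters). Of 2308 promoters with enough fragments for an exact interval, 1.6% lay above no change (37 promoters) and 1.26% below it (29 promoters). Together these make 2.86%, within the 5% that intervals of this kind leave outside by counting error at most. The promoters named for their differences are therefore described by their fragments, and a difference at a single promoter is not shown to exceed what counting over so many promoters yields.

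The other windows gave medians between -0.02 and 0.01. Summed changes were -0.08 (-0.11 to -0.05) at the -1 peak, -0.07 (-0.12 to -0.03) in the NFR and -0.07 (-0.10 to -0.04) at +1. They were -0.07 (-0.10 to -0.04) at +2, -0.08 (-0.11 to -0.05) at +3 and -0.03 (-0.06 to -0.003) at -2. At -3 the interval included no change (-0.001, -0.03 to 0.03). The summed fall just upstream of the TSS was therefore not particular to that window. Over the whole 2 kb the median change was -0.02 (1305 promoters higher, 1478 lower), and none of 2801 promoters differed by 2-fold. At the +1 nucleosome 9.47% of promoters were higher by 2-fold or more and 11% lower, and the exact interval lay above no change at 1.51% and below it at 2.08% of 2312 promoters (3.59% in all). At the -1 peak (-280 to -140 bp) these last shares were 1.49% and 1.7% of 2356 promoters (3.18% in all).

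The change differed with how sensitive a promoter was in untreated cells, a measure taken from tables outside the comparison. In the quartile that was most sensitive in untreated cells (694 promoters), median sensitivity between -200 and 0 bp was 0.75 at 40 min and 0.91 at 20 min, with 272 promoters higher at 40 min and 422 lower. Its summed change was -0.21 (-0.28 to -0.14). Light fragments were lower at 40 min by -0.19 on the log2 scale (-0.22 to -0.16), and the interval of heavy fragments included no change (0.02, -0.04 to 0.09). In the quartile that was most resistant in untreated cells, 366 promoters were higher at 40 min and 327 lower, and the summed change was 0.05 (0.00 to 0.10). There both digests held more fragments at 40 min, light by 0.17 (0.14 to 0.20) and heavy by 0.12 (0.08 to 0.16). The intervals of the 2 quartiles did not overlap. The difference between their median changes, -0.27, was -0.12 and -0.073 with pseudocounts of 0.5 and 1 of the mean. The quartiles also differed in GC content, with medians of 52.25% in the most sensitive and 66.5% in the most resistant, and the part of GC content in the difference was not tested.

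Occupancy moved with base composition. Between -200 and 0 bp, heavy signal at 40 min over 20 min was -0.09 (-0.14 to -0.04) on the log2 scale in the quartile with the lowest GC content, then 0.07, 0.16 and 0.23 (0.14 to 0.32) in the quartile with the highest. Light signal followed the same order, with -0.13, -0.01, 0.05 and 0.12. Sensitivity in this window, their ratio, varied less, between -0.03 in the lowest and -0.12 in the highest quartile, with intervals that overlapped. At the +1 nucleosome sensitivity did differ with GC content. Its summed change there was 0.08 (0.03 to 0.13) in the lowest quartile. In the others it was -0.11 (-0.17 to -0.06), -0.16 (-0.22 to -0.10) and -0.13 (-0.23 to -0.04), and none of these intervals overlapped the first. GC content also moves with capture and PCR, and its part in the differences of occupancy and sensitivity was not tested.

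**Figure D2:**
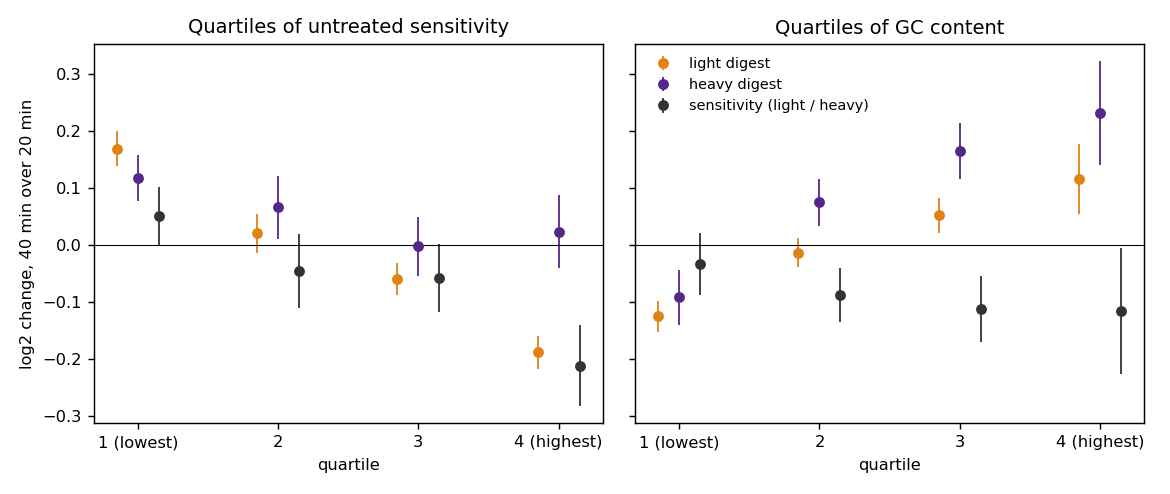
Log2 change of summed fragments between -200 and 0 bp (40 min over 20 min) in quartiles of untreated sensitivity (left) and of GC content (right), for the light digest, the heavy digest and their ratio. Bars are exact 95% counting intervals: light signal runs downward with untreated sensitivity (0.17 to -0.19), while both digests run upward with GC content.

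Promoters paired head to head with a second protein-coding gene, with divergent starts within 1 kb, were also compared between -200 and 0 bp. Their summed change in sensitivity was more negative than that of the others, although they were the more sensitive at 40 min (summed 0.40 against -0.03). Of 325 such promoters, 119 were higher and 191 lower (36.6% and 58.8%, against 45% and 49.4% of the others, a difference in shares that was not tested), with a median of -0.16 (0.30 at 40 min and 0.51 at 20 min) and a summed change of -0.24 (-0.34 to -0.13). The remaining 2451 promoters had a summed change of -0.08 (-0.11 to -0.05), an interval that did not overlap the first. Windows of paired promoters can overlap, and a shared fragment was then counted for both, so the first interval may be too narrow. The groups are therefore not shown to be separate. By motif, promoters with an ETS match had a summed change of -0.24 (-0.37 to -0.10), those with a GC box -0.16 (-0.21 to -0.11) and those with a TATA box -0.03 (-0.12 to 0.07). Promoters with an NF-kB match (542 measured) had -0.10 (-0.18 to -0.03). All 4 intervals overlapped that of all promoters.

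The gene groups differed most at the +1 nucleosome. The 10 lists of housekeeping genes, which serve translation, energy metabolism, protein turnover, transcription and cell division in every cell, held 152 promoters measured there. Sensitivity at 40 min was lower at 94 of them and higher at 50 (61.8% and 32.9%), against 46.8% lower and 45.5% higher among all promoters. Their median change was -0.19 and that of all promoters 0.00. Summed over the group, log2 light over heavy at the +1 nucleosome was 0.34 at 40 min and 0.70 at 20 min, a change of -0.36 (-0.48 to -0.23), while the promoters in no housekeeping, tissue-restricted or immune list changed by -0.07 (-0.10 to -0.04). The heavy digest carried most of it. Mean heavy signal over these +1 nucleosomes was 1.13 rpm at 40 min and 0.93 rpm at 20 min (0.28 higher on the log2 scale, 0.17 to 0.39), and mean light signal was 1.43 rpm and 1.51 rpm. The untreated tables had 1.16 rpm heavy and 1.3 rpm light, and those of 60 min 0.97 rpm heavy and 1.35 rpm light.

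Along the promoter, the housekeeping lists changed by -0.05 (-0.23 to 0.13) between -200 and 0 bp, by -0.14 (-0.26 to -0.01) at the +2 nucleosome and by -0.13 (-0.25 to -0.01) at the +3 nucleosome, so the +1 nucleosome stood lowest. Over the whole 2 kb they changed by -0.11 (-0.15 to -0.08). The change at the +1 nucleosome was -0.35 on chromosome 1, -0.40 on chromosome 10 and -0.35 (-0.71 to 0.01) on chromosome 11. Within the second quartile of GC content it was -0.41 (-0.61 to -0.22), against -0.09 (-0.15 to -0.03) in promoters of no list. Within the third quartile it was -0.34 (-0.54 to -0.14), against -0.14 (-0.20 to -0.07), and these intervals overlapped. The outer quartiles held 17 and 27 of the promoters, and their intervals included no change.

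All 10 housekeeping lists had a summed change below 0 at the +1 nucleosome, and in 4 of them the interval excluded no change. Proteasome subunits, the protein-degrading complex, had -1.04 (-1.66 to -0.43), with 6 of 7 promoters lower and 0 higher. RNA polymerase II initiation factors had -0.56 (-1.05 to -0.07), although 6 of 10 were higher and 3 lower and the median was 0.29. In that list 2 promoters, MED8 and TAF13, had intervals below no change. The sum was not calculated without them, so its sign may rest on these promoters. Subunits of the cytosolic ribosome had -0.52 (-0.96 to -0.08), with 7 of 9 lower, and those of the respiratory chain -0.51 (-0.97 to -0.04), with 7 of 9 lower. Translation factors and tRNA synthetases had 14 of 17 lower, with -0.38 (-0.79 to 0.04).

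At the +1 nucleosome 5 housekeeping promoters of 131 with an exact interval lay below no change and 0 above it, against 2.08% below and 1.51% above among all promoters. Both directions together, this share is close to the 3.59% of all promoters. It is also within the 5% that such intervals leave outside by counting error at most. The number of calls is therefore not shown to be particular to housekeeping promoters. The 5 promoters are named after their values were seen. TARS2, the mitochondrial threonyl-tRNA synthetase, had 58 light and 13 heavy fragments at 40 min, against 78 light and 3 heavy at 20 min, a change of -2.55 (-5.23 to -0.76). SRSF11, a splicing factor, had 42 light and 7 heavy at 40 min, against 71 light and 2 heavy at 20 min, a change of -2.06 (-6.09 to -0.25). MED8, a Mediator subunit, had 84 light and 25 heavy at 40 min, against 127 light and 18 heavy at 20 min, a change of -1.20 (-2.30 to -0.22). In each of the 3 the heavy count was higher at 40 min although that table is the shallower one. The promoters were picked for intervals below no change, so a relative gain of heavy fragments is part of the choice. PSMA5, a proteasome core subunit, had 44 light and 25 heavy at 40 min, against 56 light and 15 heavy at 20 min (-1.16, -2.47 to -0.09). TAF13, a TFIID subunit, had 87 light and 26 heavy at 40 min, against 95 light and 15 heavy at 20 min (-1.07, -2.22 to -0.02). RPL5, the ribosomal protein with the most fragments, had 204 light and 52 heavy at 40 min, against 199 light and 36 heavy at 20 min, and its interval included no change (-0.65, -1.40 to 0.03).

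Summed together, the lists of tissue-restricted genes went the other way in some windows, among them the +1 nucleosome. There, of 4 lists summed singly, 2 had a change above 0 and 2 a change below 0. Over olfactory receptors, epidermal differentiation genes, ion channels, homeobox genes and 1 keratin list promoter (155 promoters), summed sensitivity was -0.29 at 40 min and -0.46 at 20 min, a change of 0.17 (0.06 to 0.28), with 82 promoters higher and 67 lower and a median of 0.04. Olfactory receptors, the odorant receptors of the nose, had 0.30 (0.14 to 0.46), with 35 of 62 higher and 24 lower, and heavy signal at -0.24 (-0.37 to -0.11). The epidermal differentiation complex, the skin barrier genes of chromosome 1, had 0.18 (-0.00 to 0.37), with 26 of 43 higher. Ion channels and neurotransmitter receptors (-0.11, -0.41 to 0.18) and homeobox genes (-0.16, -0.58 to 0.26) did not share this sign. Over all these lists together, the summed change was 0.15 (0.03 to 0.27) at the -1 peak, 0.13 (0.04 to 0.23) at the +3 nucleosome and 0.09 (0.06 to 0.12) over the whole 2 kb. It was 0.02 (-0.08 to 0.13) between -200 and 0 bp and -0.07 (-0.22 to 0.09) in the NFR. At the -3, -2 and +2 nucleosomes the intervals also included no change. The change at the +1 nucleosome was not alike across GC content. In the lowest GC quartile (81 promoters) it was 0.31 (0.16 to 0.46), against 0.05 (-0.01 to 0.11) in promoters of no list. In the second quartile (39 promoters) it was 0.01 (-0.17 to 0.18), in the third (11 promoters) -0.12 (-0.62 to 0.37) and in the highest (22 promoters) 0.53 (-0.02 to 1.09). On chromosome 10, with 11 promoters, the value was -0.32 (-0.89 to 0.25).

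**Figure D3:**
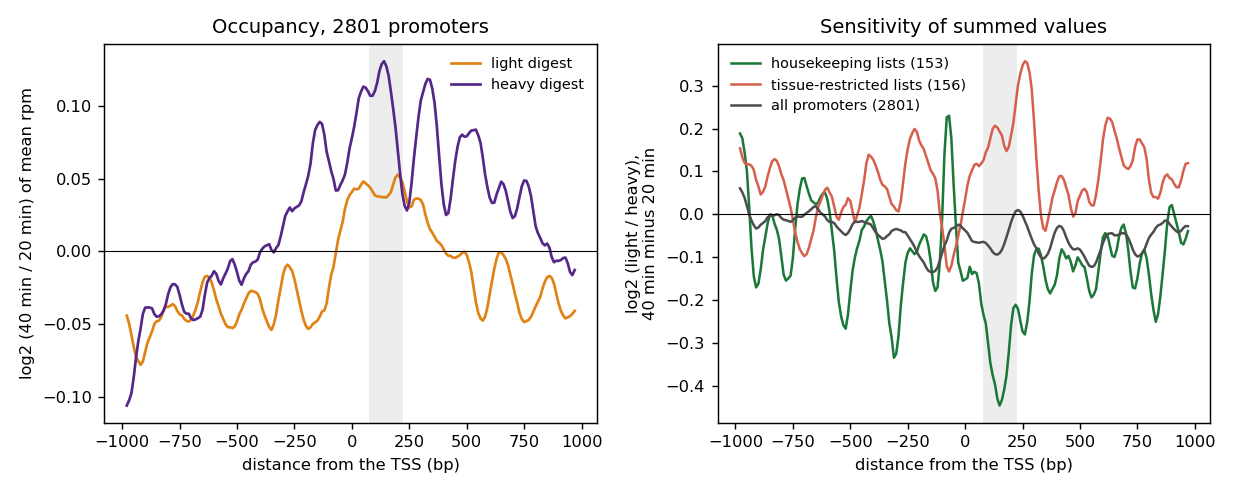
Left, log2 ratio of mean rpm at 40 min over 20 min by distance from the TSS in the light and heavy digests of 2801 promoters, averaged over 5 positions. Right, change of log2 light over heavy of summed values (40 min minus 20 min) for housekeeping lists, tissue-restricted lists and all promoters: over the shaded +1 window the housekeeping lists changed by -0.36, the tissue-restricted lists by 0.17 and all promoters by -0.07.

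At immune genes, sensitivity was lower at 40 min upstream of the TSS, by an amount that was not separated from that of other promoters. Between -200 and 0 bp, 48 of 125 promoters in 6 immune lists were higher at 40 min and 74 lower (38.4% and 59.2%), against 44% and 50.5% of all promoters. Their median sensitivity was 0.33 at 40 min and 0.54 at 20 min, and the summed change was -0.20 (-0.34 to -0.06), an interval that overlapped that of promoters in no list (-0.09, -0.13 to -0.06). Light signal was lower at 40 min (-0.13, -0.20 to -0.07), and heavy signal had 0.07 (-0.05 to 0.19). At the +1 nucleosome the change was -0.03 (-0.16 to 0.11). Centering the upstream window on the -1 peak took the median of the immune lists to 0.00.

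Among the immune lists, interferon-stimulated genes had the lowest median change, -0.56, with 16 of 24 lower and 8 higher (summed change -0.34, -0.69 to 0.01). Their median sensitivity was 0.75 at 40 min and 1.05 at 20 min. ISG15, a ubiquitin-like modifier induced by interferon, had 57 light and 9 heavy fragments at 40 min, against 102 light and 3 heavy at 20 min. Its sensitivity was 1.01 at 40 min and 3.19 at 20 min, a change of -2.18 (-5.17 to -0.52), with 1.10 in untreated cells and 2.26 at 60 min. It is the promoter with the 2 overlapping ISRE matches shown above. IFIT1, which binds foreign RNA, had 29 light and 4 heavy at 40 min, against 41 light and 2 heavy at 20 min (-1.14, -5.22 to 1.25). GBP3 and GBP7, interferon-inducible GTPases of the guanylate-binding cluster, had -1.65 (-8.31 to 2.18) and -1.18 (-4.15 to 0.97). Members with a higher value included IFITM2, an antiviral membrane protein, with 83 light and 16 heavy at 40 min, against 50 light and 23 heavy at 20 min (1.01, -0.07 to 2.23). Apart from ISG15, no member of the list had an interval that excluded no change.

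Cytokines and their receptors were lower at 20 of 28 promoters and higher at 8, with a median of -0.23 and a summed change of -0.17 (-0.42 to 0.08). NF-kB pathway genes were lower at 10 of 16, with a median of -0.34 and a summed change of -0.11 (-0.44 to 0.22). At the +1 nucleosome they were higher at 9 and lower at 6, with a median of 0.40 but a summed change of 0.05 (-0.47 to 0.57). The receptor gene TNFRSF4 (OX40), in both lists, had 40 light and 15 heavy fragments at 40 min, against 34 light and 38 heavy at 20 min, a change of 1.23 (0.22 to 2.59). The NF-kB subunit gene NFKB2 had 7 light and 2 heavy at 40 min, against 10 light and 2 heavy at 20 min, too few to resolve a change (-0.43, -4.76 to 3.41). The ETS factor gene SPI1 had 28 light and 3 heavy at 40 min, against 31 light and 6 heavy at 20 min (0.44, -1.73 to 3.42). JUN, an AP-1 subunit gene, had 6 light and 0 heavy at 40 min, against 10 light and 0 heavy at 20 min, and has no interval. Toll-like receptor signaling genes (3 higher and 6 lower of 9), immediate early genes (11 higher and 8 lower of 20) and B cell genes (16 higher and 20 lower of 38) had medians of -0.13, 0.09 and -0.03. In the B cell list, FCRLA, an Fc receptor-like protein, had 43 light and 20 heavy at 40 min, against 62 light and 13 heavy at 20 min (-1.20, -2.61 to -0.08), but 0.95 when the window was moved to -280 to -140 bp.

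Taken as a whole, the housekeeping lists had a median change between -200 and 0 bp of -0.01, equal to that of all promoters. Housekeeping promoters were sensitive at both times (median 0.77 at 40 min and 0.87 at 20 min) and were higher at 69 and lower at 77 of 153. Within them, DNA replication and cell cycle genes had a summed change of -0.45 (-0.88 to -0.02), with 19 of 31 lower and a median of -0.10. This was the only 1 of 23 lists whose interval excluded no change in this window. The sum includes CDC14A, one of the largest falls, and was not calculated without it. The interval ends close to no change, so its exclusion of no change may rest on that promoter alone. Chromatin remodelers and histone modifiers had a median of 0.26, with 12 of 18 higher and 5 lower, and a summed change of 0.04 (-0.83 to 0.93). The peptidyl-prolyl isomerase gene PPIE had 145 light and 17 heavy fragments at 40 min, against 141 light and 39 heavy at 20 min, a change of 0.99 (0.12 to 2.04). In the epidermal differentiation complex 24 of 43 promoters were higher and 19 lower. An interval above no change was found at 4 of the 43 (SPRR3, SMCP, S100A7 and LCE2D), against 37 of 2308 among all promoters (1.6%). These 43 held on average 30.0 heavy fragments at 20 min, against 10.0 over all promoters, and intervals narrow with more fragments. SMCP, a sperm mitochondrial protein encoded in that cluster, had 81 light and 15 heavy at 40 min, against 57 light and 35 heavy at 20 min (1.43, 0.48 to 2.65). Among the genes of other blood lineages, 12 of 25 were higher and 12 lower, with a median of -0.23 in the 8 myeloid genes. Histone genes had a summed change of -0.54 (-1.12 to 0.05), but a median of 0.00, with 4 of 15 higher and 5 lower. The histone gene HIST3H2BB had 24 light and 18 heavy at 40 min, against 59 light and 21 heavy at 20 min (-1.12, -2.50 to -0.01).

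**Figure D4:**
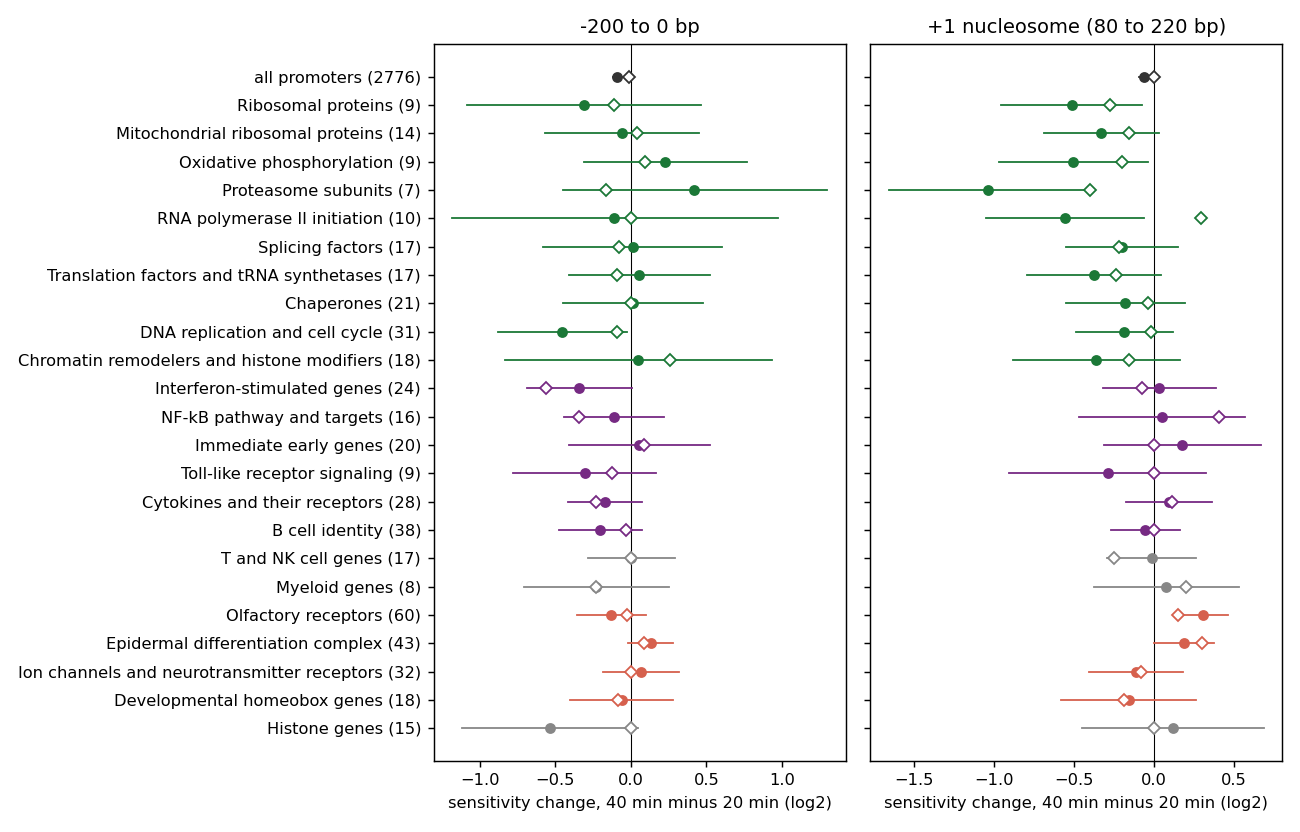
Change of log2 light over heavy (40 min minus 20 min) between -200 and 0 bp (left) and at the +1 nucleosome (right) for 23 gene lists and all promoters, with the number of promoters measured between -200 and 0 bp in brackets. Filled circles are changes of summed fragments with exact 95% counting intervals and open diamonds are medians over promoters: at the +1 nucleosome all 10 housekeeping lists (green) have summed changes below 0, and olfactory receptors and the epidermal differentiation complex (red) lie above 0.

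Single promoters with the largest differences between -200 and 0 bp were taken from the 1384 promoters above the median of 47 fragments. FSHB, the beta subunit of follicle-stimulating hormone and silent outside the pituitary, had 19 light and 1 heavy fragments at 40 min, against 17 light and 13 heavy at 20 min. Its sensitivity was 1.67 at 40 min and -0.83 at 20 min, a change of 2.50 (0.62 to 9.16). FAM129A, a stress-responsive protein, had 35 light and 2 heavy at 40 min, against 32 light and 18 heavy at 20 min (2.38, 0.85 to 6.34). In both the light counts were nearly equal and the heavy counts differed. SPRR3, a cornified envelope protein, had 17 light and 0 heavy at 40 min, against 27 light and 15 heavy at 20 min, and the interval of its change begins at 0.74. LINC00856, a long non-coding RNA, had 79 light and 6 heavy at 40 min, against 75 light and 30 heavy at 20 min (1.91, 0.81 to 3.84). The other 4 of the 8 largest rises were TMCO2, WARS2 (mitochondrial tryptophanyl-tRNA synthetase), EVA1B and C1orf172, with changes of 2.01, 1.78, 1.77 and 1.68.

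Among the falls, KIAA0040 had 12 light and 5 heavy at 40 min, against 32 light and 1 heavy at 20 min. Its sensitivity was -0.20 at 40 min and 2.47 at 20 min (-2.67, -9.53 to -0.49), and -0.97 in untreated cells. CDC14A, a dual-specificity phosphatase of the cell cycle, had 22 light and 11 heavy at 40 min, against 40 light and 3 heavy at 20 min (-2.34, -5.51 to -0.77). Here both digests moved, with fewer light and more heavy fragments at 40 min. ADIPOR1, an adiponectin receptor, had 21 light and 9 heavy at 40 min, against 34 light and 2 heavy at 20 min (-2.16, -6.38 to -0.55). ZNF669, a zinc finger protein, had 21 light and 19 heavy at 40 min, against 47 light and 11 heavy at 20 min (-1.94, -3.59 to -0.70). CRYZ, a quinone reductase, RGR, an opsin-like receptor of the retinal pigment epithelium, and SCCPDH, whose deposited TSS lies 333 bp from the nearest annotated start, had -1.88, -1.82 and -1.77.

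**Figure D5:**
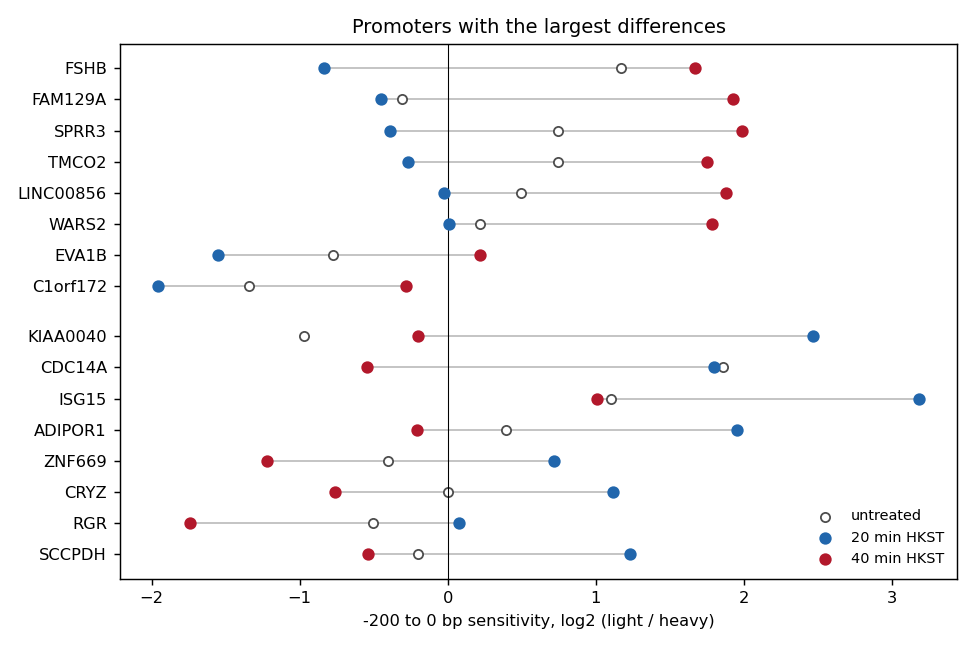
Sensitivity between -200 and 0 bp, log2 of light over heavy, in untreated cells and at 20 and 40 min for the 8 promoters with the largest rises (top) and the 8 with the largest falls (bottom) at 40 min. The promoters were chosen for the gap between 40 and 20 min, such as 1.67 against -0.83 at FSHB and 1.01 against 3.19 at ISG15, so the gap itself is a description.

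At the +1 nucleosome the same rule gave FOLH1, a folate hydrolase, with 20 light and 5 heavy fragments at 40 min, against 10 light and 23 heavy at 20 min (2.57, 1.06 to 5.11). GLIS1, a zinc finger transcription factor, had 43 light and 3 heavy at 40 min, against 45 light and 18 heavy at 20 min (2.13, 0.40 to 4.82), and TSACC had 33 light and 2 heavy, against 48 light and 16 heavy (2.13, 0.02 to 5.51). On the falling side, TM2D1 had 50 light and 6 heavy at 40 min, against 66 light and 0 heavy at 20 min, and the interval of its change ends at -0.73. ADK, adenosine kinase, which shares a divergent promoter with AP3M1, had 33 light and 20 heavy at 40 min, against 44 light and 3 heavy at 20 min (-2.92, -5.81 to -1.39). The non-coding RNA LINC00467 had 34 light and 7 heavy at 40 min, against 47 light and 1 heavy at 20 min (-2.86, -8.98 to -0.36).

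Light plus heavy occupancy between -200 and 0 bp differed by 2-fold or more at few promoters, with 0.756% higher and 0.612% lower at 40 min. CHRNB2, a nicotinic receptor subunit, had 28 light and 34 heavy fragments at 40 min, against 23 light and 13 heavy at 20 min, a log2 ratio of 1.20. CCDC19 had 23 light and 31 heavy at 40 min, against 20 light and 12 heavy at 20 min (1.17), and HSD17B12, an enzyme of fatty acid elongation, 24 light and 10 heavy, against 11 light and 4 heavy (1.17). In the first pair the heavy counts rose beyond their intervals and the light counts did not, and at HSD17B12 the light count did. Among all promoters with an interval, the heavy count lay above no change at 1.66% and below it at 1.7%, and the light count at 2.83% and 3.3%. FMO1, a flavin monooxygenase, had 19 light and 3 heavy at 40 min, against 44 light and 21 heavy at 20 min (-1.36), followed by SPRR3 (-1.32) and the DNA-binding protein gene ARID5B (-1.20).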

How the data were processed

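The authors aligned paired reads to hg19, kept unique alignments, selected fragments of 140 to 200 bp, counted fragment centers in 60 bp windows every 10 bp and deposited the values in rpm, as 8 tables that each pool 2 replicates. Bowtie2 2.2.2, bedtools and SAMtools are named in the notes on processing that the submitters gave. The deposited rpm values rise in steps of 0.5 fragment, and 100% lay within 0.05 of a whole step, so depth and fragment numbers were recovered (a fragment enters 6 windows). The exact interval on these recovered reads called 66 promoters between -200 and 0 bp. The 20 min tables end in a partial line, after 2801 light and 6779 heavy complete promoters, which sets the promoters used. Bins without a value (9.90%, the same in all 4 tables) were left out, and a window needed values in most bins, which 25 promoters lacked between -200 and 0 bp.

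For sensitivity, 0.122 rpm (0.1 of the mean) was added to light and heavy values before log2 of their ratio was taken, and changes are 40 min minus 20 min on that scale. Summed changes and intervals come from fragment numbers scaled to table depth, with exact conditional 95% intervals. GC content, motifs and annotated starts came from GRCh37 with GENCODE (79.6% of TSSs within 50 bp of a start). Named promoters were the 8 largest rises and falls between -200 and 0 bp above the median of 47 fragments with an interval that excludes no change, 3 of each for the +1 nucleosome and for occupancy, up to 2 of each per list with 20 or more fragments, and NFKB2, SPI1, JUN, ISG15 and IFIT1, and of these 112 the text names those that bear on a result. The promoters, lists (24, of which 23 had 5 or more promoters) and rules were chosen with earlier results of these data known. Methods were tested on simulated fragments. Python 3.11.15, numpy 2.4.6, pandas 2.3.3, scipy 1.17.1 and matplotlib 3.10.9 were used.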

Additional observations from a re-analysis of the deposited data

How the results depend on the processing

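No paired analysis was possible because each table pools both replicates, and for the same reason no replicate could be left out. Between -200 and 0 bp the median change was -0.061 with 5 or more fragments in each table, -0.060 above the median signal, -0.052 as a mean and -0.090 as a ratio of summed values. Promoters higher and lower by 2-fold numbered 404 and 480 with a pseudocount of 0.02 of the mean, 23 and 24 with 0.5, 4 and 3 with 1, 47 and 71 with 5 or more fragments, and 341 and 399.75 on average over 20 draws thinned to the shallowest table, so these counts were set by depth and pseudocount. With exact 99% intervals, 12 promoters lay above and 9 below no change. Means in place of medians gave 0.038 at -2, -0.036 in the NFR, -0.024 at +1 and -0.011 at +2. Equal totals over the shared promoters gave 0.033 at -2, and over the whole 2 kb turned the median sensitivity change to 0.019 and the heavy occupancy change to -0.0066. Light plus heavy occupancy at +1 was 0.012 with a pseudocount of 1 of the mean. The difference in median change between the most and the least sensitive untreated quartile, -0.27, became -0.12 and -0.073 with pseudocounts of 0.5 and 1 of the mean. FCRLA had 0.95 between -280 and -140 bp. Values within GC quartiles and chromosomes were added after the data were seen: the summed +1 change of the tissue-restricted lists was -0.12 in the third GC quartile and -0.32 on chromosome 10. With 4 to 5 heavy fragments in the median window, changes of a single promoter under several-fold were not detectable at this depth.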
